A study of Mus musculus with 4 samples.

Results

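Chemokines and chemokine receptors were examined in endothelial cells that had been differentiated from iPSCs of mice. iPSCs, induced pluripotent stem cells, are adult cells reprogrammed so that they can again form any tissue. They came from 2 mice with diet-induced obesity (DIO) and from 2 healthy control mice, all with a labelled age of 24 weeks, and each mouse gave 1 Affymetrix expression array. The arrays are called DIO 1, DIO 2, control 1 and control 2 after the mouse numbers. Strain, sex, diet composition and reprogramming method are not stated in the labels. The cells of every group were grown in endothelial medium and trypsinized before harvest, and p-values measure the spread between these arrays, part of which may be technical. The cell type field of the labels reads iPSC although the titles name endothelial cells.

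Members were the genes whose symbol is Ccl, Cxcl, Ccr or Cxcr followed by a number and an optional letter, together with Cx3cl1, Cx3cr1 and Xcl1. Only probe sets (groups of short probes for 1 transcript) that the platform annotation assigns to a single gene were taken. This gave 48 member genes of 18193 genes in all, measured by 76 probe sets, of which 33 genes encode ligands and 15 encode receptors. Each gene is represented by its probe set with the highest mean level. All levels are log2 expression values as deposited, and every difference is the DIO mean less the control mean on that log2 scale, with the standard error (SE) from limma, n = 2 arrays per group.

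Chemokines are small secreted proteins that direct the migration of leukocytes and other cells along concentration gradients, and they are named after the spacing of their first cysteines (CC, CXC, CX3C and XC). Their receptors couple to inhibitory G proteins, and most ligands are held on endothelial surfaces by heparan sulfate. In vessels, inflamed endothelium makes ligands such as Ccl2 and Cxcl1 that arrest monocytes and neutrophils, while Cxcl12 and its receptor Cxcr4 guide vessel growth. Obese fat tissue is known for chemokines that recruit macrophages.

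Control 2 stood apart from the other arrays, with a correlation over all genes of 0.971 with DIO 1, 0.976 with DIO 2 and 0.963 with control 1, where the other pairs reached 0.988 to 0.994. All 18 measured epidermal markers were highest on control 2, and they averaged 7.91 on DIO 1, 8.96 on DIO 2, 6.77 on control 1 and 11.75 on control 2. Trp63, the master regulator of stratified epithelium, was at 4.55 and 4.84 in DIO and at 4.15 and 8.37 in the controls. Of 16 endothelial markers, 7 lay above the array median on all 4 arrays, among them Cdh5 and Pecam1, while Tie1, Emcn and Fli1 ran from 3.44 to 3.88 over the 4 arrays. The endothelial list averaged 5.82 to 5.89 in DIO and 5.94 to 6.04 in the controls. All 12 pluripotent cell markers were above the median on every array and averaged 10.52 and 9.46 in DIO and 10.02 and 9.24 in the controls. All 8 simple epithelial markers were above it too, averaging 12.3 and 12.4 in DIO and 12.2 and 12.3 in the controls. Fibroblast markers averaged 6.29 and 6.64 in DIO and 6.26 and 7.41 in the controls, and 7 of 10 were highest on control 2. Of 16 leukocyte markers, 3 (Cd68, Csf1r and Laptm5) lay above the array median on all arrays, and the pan-leukocyte gene Ptprc was at 4.11 and 3.95 in DIO and 3.84 and 3.86 in the controls. The summed level of the leukocyte list was 91.2 to 92.0 in DIO and 88.4 to 90.0 in the controls. In such bulk samples, fewer cells of a type and less RNA per cell cannot be told apart.

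The promoters of 4 chemokines are shown because Cxcl1, Ccl20 and Cxcl14 were among the members that were high on control 2, as described below, and because Cxcl2 neighbours Cxcl1 in the genome and was also highest there. The sequences are from RefSeq (GRCm38.p6), 250 bases before to 50 bases after each start, 5′ to 3′ along the gene. Capitals mark matches on either strand to GGG and TTCC with any 3 bases between them, a pattern that many binding sites of NF-κB fit. NF-κB is a transcription factor activated by inflammatory signals.
Cxcl1 (chr5:90890995-90891294, plus strand): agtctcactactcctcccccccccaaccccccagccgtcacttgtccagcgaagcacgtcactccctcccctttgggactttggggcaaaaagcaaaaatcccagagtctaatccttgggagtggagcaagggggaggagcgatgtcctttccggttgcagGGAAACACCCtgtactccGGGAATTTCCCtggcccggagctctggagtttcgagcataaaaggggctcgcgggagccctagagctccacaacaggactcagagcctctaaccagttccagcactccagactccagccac
Cxcl2 (chr5:90903649-90903948, plus strand): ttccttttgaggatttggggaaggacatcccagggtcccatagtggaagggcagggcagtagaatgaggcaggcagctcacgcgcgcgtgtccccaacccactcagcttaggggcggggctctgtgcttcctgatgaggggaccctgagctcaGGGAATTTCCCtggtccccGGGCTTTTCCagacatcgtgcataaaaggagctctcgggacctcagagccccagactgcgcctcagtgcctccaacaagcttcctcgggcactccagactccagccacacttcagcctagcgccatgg
Ccl20 (chr1:83116516-83116815, plus strand): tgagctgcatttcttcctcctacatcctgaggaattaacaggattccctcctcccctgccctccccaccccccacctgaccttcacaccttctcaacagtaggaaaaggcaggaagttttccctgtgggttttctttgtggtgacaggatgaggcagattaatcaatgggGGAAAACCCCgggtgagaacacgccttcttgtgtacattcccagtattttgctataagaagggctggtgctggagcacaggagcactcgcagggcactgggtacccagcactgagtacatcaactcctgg
Cxcl14 (chr13:56296502-56296801, minus strand): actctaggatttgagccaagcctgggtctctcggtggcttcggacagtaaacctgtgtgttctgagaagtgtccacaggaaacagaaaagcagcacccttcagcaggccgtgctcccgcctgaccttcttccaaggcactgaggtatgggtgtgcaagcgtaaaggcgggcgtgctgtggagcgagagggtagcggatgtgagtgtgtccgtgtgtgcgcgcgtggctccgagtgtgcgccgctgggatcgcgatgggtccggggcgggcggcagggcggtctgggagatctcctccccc

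Cxcl1 held 2 such stretches, GGAAACACCC and GGGAATTTCCC, which start 89 and 71 bases before the start site. Cxcl2 held the same GGGAATTTCCC, 97 bases before its start, and GGGCTTTTCC, and Ccl20 held GGAAAACCCC 80 bases before its start. In GGGAATTTCCC a match on each strand overlap by all but 1 base. The Cxcl14 window held no match, and neither did that of Ccl6, which was also high on control 2 and is not shown. RefSeq promoters were found for 35 of the 48 members, and 9 of these genes held a match, Ccl1, Ccl9, Ccr3, Ccr6, Cxcl3 and Cxcl10 besides the 3 shown. Of all 32851 promoter windows of this length, 5.56% held one. A match is a description of the letters and was not tested as a binding site.

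Most of the family lay in the lower part of the arrays. The array median over all probe sets was 5.61 on DIO 1, 5.60 on DIO 2, 5.63 on control 1 and 5.64 on control 2. Of the 48 members, 9 (18.8%) were above it on all 4 arrays, where 59.9% of all genes were. A further 5 members were above it on 1 to 3 arrays and 34 on none. By array, 10 members were above the median on DIO 1, 11 on DIO 2, 9 on control 1 and 14 on control 2. No detection calls were used here, so for a probe set below the median it is unknown how far it lies above background. The plot of member levels shows these classes.

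**Figure D1:**
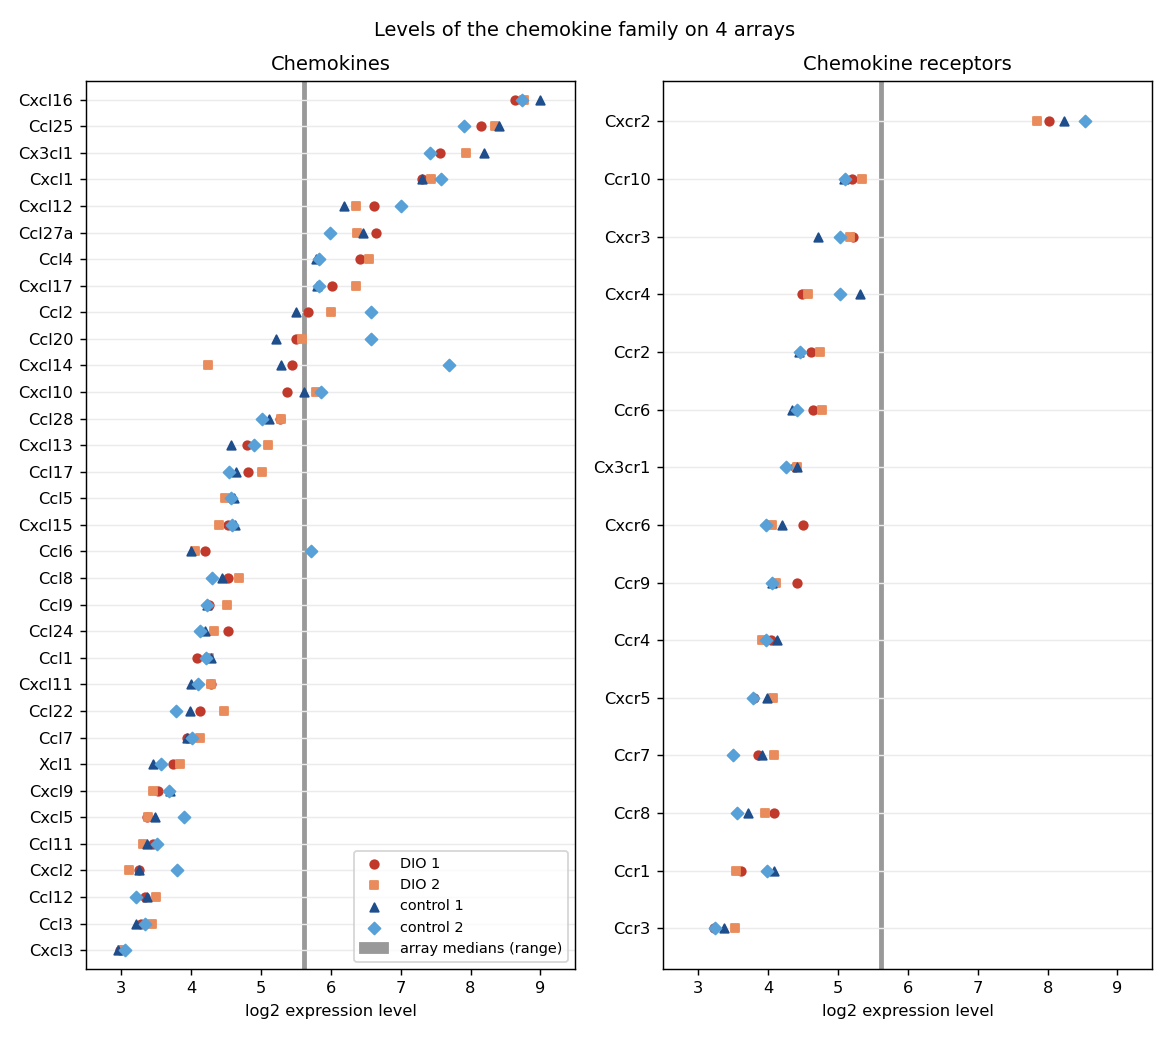
Log2 expression level (x axis) of 33 chemokines and 15 chemokine receptors (rows, sorted by mean level), with 1 point per array and the range of the 4 array medians as a grey band. The 9 members right of the band on all arrays include 8 ligands and 1 receptor, Cxcr2, and control 2 lies apart for Cxcl14, Ccl6, Ccl20 and Ccl2.

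The 9 members above the median on all arrays were the ligands Cxcl16, Ccl25, Cx3cl1, Cxcl1, Cxcl12, Ccl27a, Ccl4 and Cxcl17 and the receptor Cxcr2. Cxcl16, a membrane-bound ligand that also takes up oxidized lipoprotein, was at 8.64 and 8.76 in DIO and at 8.996 and 8.73 in the controls. That placed it at the 79.1 to 81.4 percentile of all probe sets of each array. The groups overlapped, and the difference was −0.16 ± 0.16 (SE; limma, adjusted p = 0.834). Its second probe set differed by −0.01. Cx3cl1, the membrane-anchored ligand made by activated endothelium and neurons, was at 7.57 and 7.93 in DIO and at 8.19 and 7.42 in the controls, again with overlap. Its difference of −0.06 ± 0.32 (limma, adjusted p = 0.977) became 0.33 without control 1, and its 3 other probe sets gave 0.07 to 0.24. Its receptor Cx3cr1 was at 4.39 and 4.41 in DIO and at 4.42 and 4.25 in the controls, below the median throughout. Cxcr6, the receptor of Cxcl16, was below it too, at 4.50 and 4.06 in DIO and at 4.20 and 3.97 in the controls.

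Ccl25, a ligand of thymus and small intestine that acts on Ccr9, was at 8.15 and 8.36 in DIO and at 8.41 and 7.91 in the controls. Its difference was 0.09 ± 0.22 (limma, adjusted p = 0.939), and −0.12 with its other probe set. Ccl27a, a keratinocyte ligand that draws T cells to the skin, was at 6.65 and 6.38 in DIO and at 6.45 and 5.99 in the controls. DIO and control overlapped, and the difference was 0.29 ± 0.22 (limma, adjusted p = 0.792). It was 0.057 without control 2, 0.53 without control 1 and 0.16 without DIO 1. Control 2, the array with the highest epidermal markers, had the lowest Ccl27a level of the 4. The probe set carries a suffix for probes that also match other sequences, and 2 more probe sets, shared between Ccl27a and near-identical copies, were not counted as members. One of them read 7.98 and 8.04 in DIO, against 8.13 and 7.62 in the controls. The other read 7.28 and 7.20 in DIO, against 7.28 and 6.79 in the controls.

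In the comparison of DIO with control, 0 of 18193 genes and so 0 of the 48 members passed an adjusted p of 0.05 (limma; background 0%). At an unadjusted p below 0.05 there were 4 members, where 6.58% of all genes reached that level. The 4 members are 8.33% of the family, so the share was near the background. They were Ccl4 and Ccr8, with higher DIO means, and Cxcr4 and Ccr1, with lower ones. Over all genes that level was reached by 594 (3.26%) with a higher and 604 (3.32%) with a lower DIO mean, a split that became 772 and 473 after quantile normalization and 721 and 502 after centring each array on its median. The plot of differences by role shows all 48 members.

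**Figure D2:**
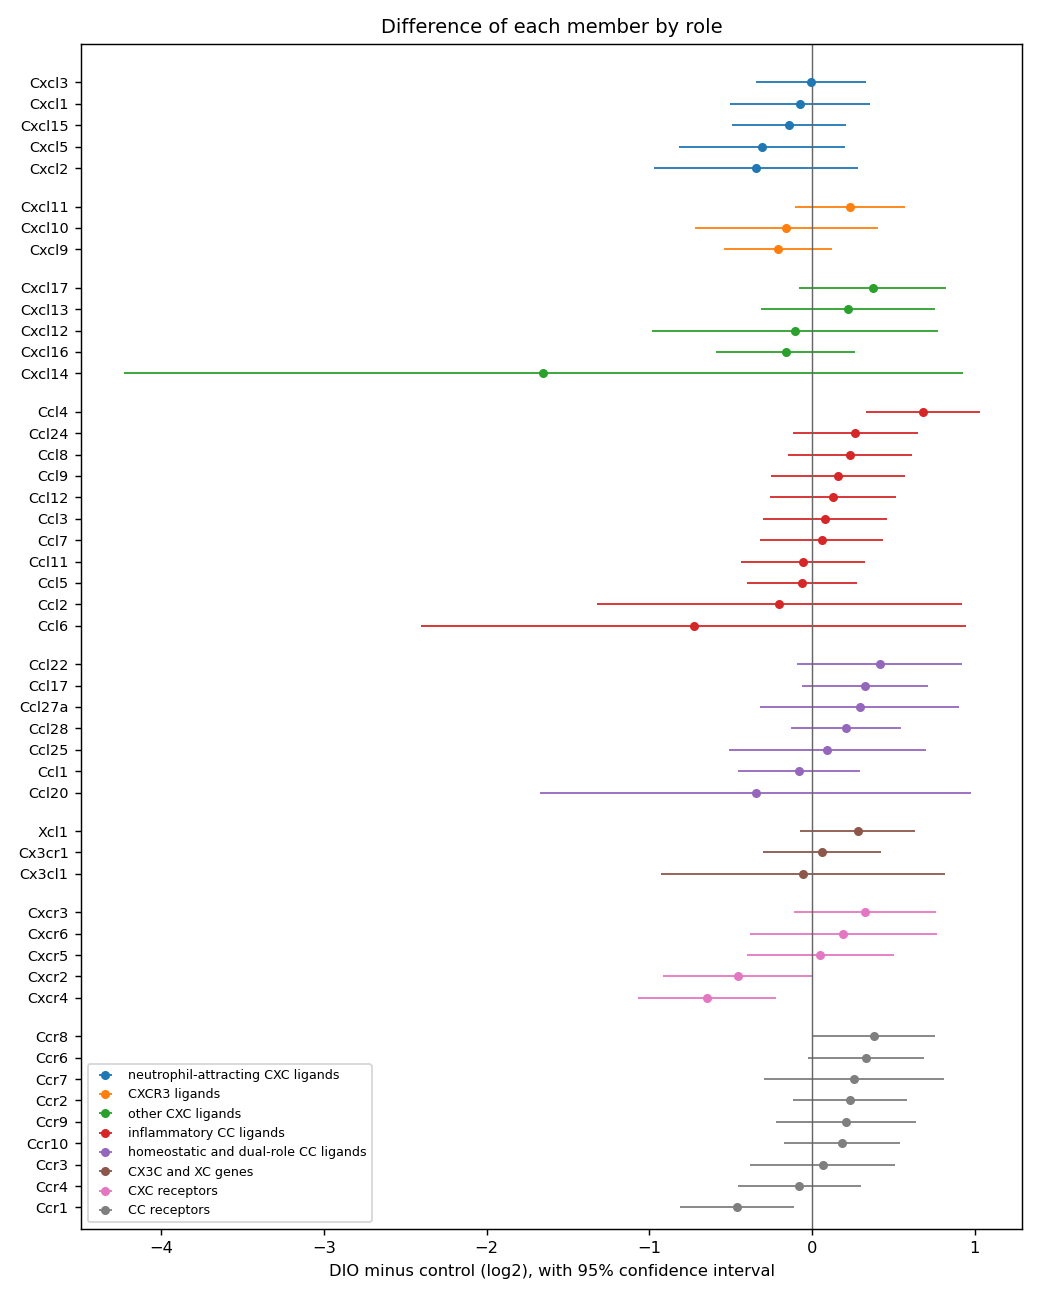
DIO minus control (x axis, log2) for each of the 48 members (rows, grouped and coloured by role), where points are limma differences and lines their 95% confidence intervals, n = 2 arrays per group. The intervals of Ccl4, Ccr8, Cxcr4 and Ccr1 leave out 0 before any adjustment, and the widest intervals belong to Cxcl14, Ccl6, Ccl20 and Ccl2.

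Ccl4, a ligand that attracts monocytes and T cells, was at 6.42 and 6.55 in DIO and at 5.79 and 5.83 in the controls. Both DIO arrays lay above both controls. The difference of 0.68 ± 0.13 had the smallest p among the members (limma, unadjusted p = 0.00544, adjusted p = 0.728). It was 0.70 without control 2 and 0.66 without control 1, so the array that stood apart moved it little. Ccl3, its genomic neighbour, with overlapping function, was below the median at 3.28 and 3.44 in DIO and at 3.21 and 3.35 in the controls, and its groups overlapped.

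Cxcr4, the receptor of Cxcl12, was at 4.48 and 4.57 in DIO and at 5.31 and 5.04 in the controls. Both DIO arrays were below both controls, and all 4 values were below the array median. The difference was −0.65 ± 0.16 (limma, unadjusted p = 0.0131, adjusted p = 0.728), and it was −0.78 without control 2 and −0.51 without control 1. Cxcl12 itself, which keeps stem cells in their niche, was at 6.62 and 6.36 in DIO and at 6.19 and 7.01 in the controls. Its groups overlapped, and the difference of −0.10 ± 0.32 (limma, adjusted p = 0.952) became 0.30 without control 2. Its 2 other probe sets, of which 1417574_at had both DIO arrays below both controls and 1439084_at had both above, differed by −0.45 and 0.39, so they disagreed in direction. Ackr3, the scavenging second receptor of Cxcl12 and no member by symbol, was at 8.88 and 8.83 in DIO and at 9.20 and 9.60 in the controls. It was above the median on all arrays, with a difference of −0.55 ± 0.18 (limma, unadjusted p = 0.0396, adjusted p = 0.728) that was −0.34 without control 2.

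Cxcr2, the receptor through which neutrophils respond to Cxcl1, Cxcl2 and Cxcl5, was the only receptor above the array median. It was at 8.02 and 7.85 in DIO and at 8.24 and 8.53 in the controls. Both DIO arrays were below both controls, and the difference was −0.45 ± 0.17 (limma, unadjusted p = 0.0517, adjusted p = 0.728). It was −0.31 without control 2 and −0.60 without control 1, and 1 probe set carries the gene. Of the 16 leukocyte markers, 12 had a higher DIO mean and 4 a lower one. Only 3 of the 16 were above the array median on all arrays. Dim genes in general tilted the same way, with a higher DIO mean in 65.8% of those above the median on no array. The share was 53.3% over all genes. Ptprc is given above, and Itgam was at 3.32 and 3.85 in DIO and 3.70 and 3.54 in the controls. Laptm5 was far brighter, at 9.45 and 8.08 in DIO and 8.57 and 7.21 in the controls. Csf1r, the brightest of the list, was at 11.11 and 11.03 in DIO and 11.47 and 11.66 in the controls. Its difference was −0.49 ± 0.14 (limma, unadjusted p = 0.0228, adjusted p = 0.728), with both DIO arrays lower. It was the 1 leukocyte marker with an unadjusted p below 0.05.

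Among the CC receptors, all 9 measured were below the median on every array. Ccr1, a receptor of monocytes, was at 3.62 and 3.54 in DIO and at 4.09 and 3.99 in the controls, with both DIO arrays lower, a difference of −0.46 ± 0.13 (limma, unadjusted p = 0.0215, adjusted p = 0.728). Its other probe set differed by 0.10. Ccr8, a receptor of regulatory T cells, was at 4.08 and 3.95 in DIO and at 3.71 and 3.56 in the controls, with both DIO arrays higher, a difference of 0.38 ± 0.14 (limma, unadjusted p = 0.0485, adjusted p = 0.728). Ccr6, the receptor of Ccl20, was at 4.64 and 4.77 in DIO and at 4.34 and 4.41 in the controls, a difference of 0.33 ± 0.13 (limma, adjusted p = 0.728). Of the 9, 7 had a higher DIO mean, also without control 2 and after either rescaling. Both DIO arrays were above both controls for 5 (Ccr2, Ccr6, Ccr8, Ccr9 and Ccr10; 4 after quantile normalization), and below for 1. The other probe sets of Ccr2 all overlapped and differed by 0.022, −0.16 and 0.0018. Those of Ccr9 were mixed, as 1421919_a_at differed by −0.27 with both DIO arrays below and 1421920_a_at by 0.20 with both above. The remaining ones of Ccr9 overlapped. Among all genes above the array median on no array, 65.8% had a higher DIO mean, 31.1% had both DIO arrays above and 9.7% had both below. The levels of these 9 receptors ran from 3.23 to 5.35. Of the 5 CXC receptors, Cxcr3 had both DIO arrays above both controls, at 5.22 and 5.17 in DIO and 4.72 and 5.02 in the controls, Cxcr2 and Cxcr4 had both below, and Cxcr5 and Cxcr6 overlapped.

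Cxcl17, a mucosal chemokine, and Ccl22, which acts with Ccl17 on Ccr4, were the other ligands among the 5 highest differences. Cxcl17 was at 6.02 and 6.35 in DIO and at 5.80 and 5.83 in the controls, a difference of 0.37 ± 0.17 (limma, adjusted p = 0.730). Ccl22 was at 4.13 and 4.48 in DIO and at 3.99 and 3.78 in the controls, a difference of 0.42 ± 0.19 (limma, adjusted p = 0.730). In both, the DIO arrays lay above both controls. Without DIO 2 the differences were 0.21 for Cxcl17 and 0.24 for Ccl22. Ccl17, which lies close to Ccl22 in the genome with Cx3cl1 as the only member between them, was at 4.82 and 5.02 in DIO and 4.65 and 4.55 in the controls, also without overlap. Cx3cl1 did not share this order.

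Over the family, 16 of 48 members (33.3%) had both DIO arrays above both controls, where 21.4% of all genes did, and 6 (12.5%) had both below, where 17% of all genes did. The groups overlapped for the other 26 members, and 38.4% of all genes were without overlap in either direction. The median difference was 0.06 over the members and 0.02 over all genes. This split moved with level. Among the 34 members above the array median on no array, 14 (41.2%) had both DIO arrays above both controls and 5 (14.7%) had both below. Among all 6021 genes of that level class the shares were 31.1% and 9.7%, so dim genes in general tended upward in DIO. The 25th percentile of all probe sets was 4.11 and 4.12 in DIO and 4.06 and 4.05 in the controls. Among the 9 members above the median on all arrays, 2 (Ccl4 and Cxcl17) had both DIO arrays above and 1 (Cxcr2) had both below, where the shares of all genes in that class were 16% and 21.6%. Without control 2, 24 of the 48 members had both DIO arrays above control 1 and 13 had both below, where 33.5% and 42.3% of all genes did. In the dim class the shares were then 52.9% and 26.5% of members and 45.7% and 26.9% of all genes. The plot of difference against level sets the members against the band of all genes.

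**Figure D3:**
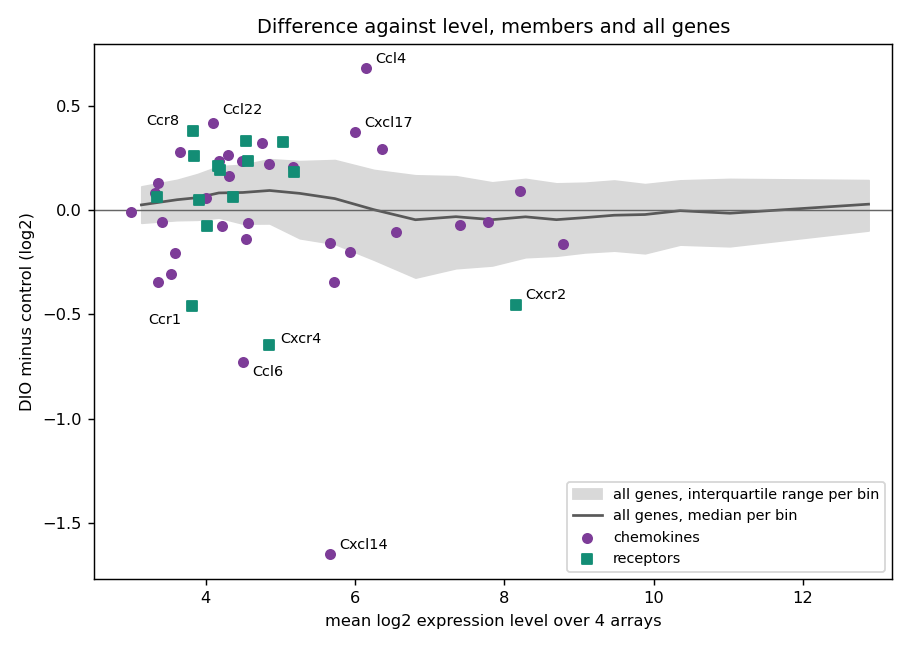
DIO minus control (y axis, log2) against the mean log2 level over 4 arrays (x axis) for 33 chemokines and 15 receptors, with the median and interquartile range of all 18193 genes in 20 level bins in grey. The grey median is above 0 at low levels, reaching 0.09, and 23 of the 34 members above the array median on no array lie on the same side, while Ccl4, Cxcr4, Ccl6 and Cxcl14 are among those outside the grey band.

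By role, the 5 neutrophil-attracting ligands (Cxcl1, Cxcl2, Cxcl3, Cxcl5 and Cxcl15) all had a lower DIO mean, with differences from −0.34 to −0.0078 and a median of −0.14 (4 of the 5 lower after either rescaling, 3 without control 2), and Cxcl5 and Cxcl15 had both DIO arrays below both controls. Both DIO arrays lay below both controls for 17% of all genes. The share was 9.7% among genes above the array median on no array, the class of all but Cxcl1. In that class 65.8% had a higher DIO mean. For 4 of the 5, control 2 was the highest array, where it was for 20.9% of all genes. Of the 3 ligands of Cxcr3, which interferon induces, Cxcl9 was at 3.52 and 3.45 in DIO and 3.70 and 3.69 in the controls. Cxcl10 was at 5.37 and 5.79 in DIO and 5.62 and 5.86 in the controls, around the array median and with overlap. Cxcl11 was at 4.29 and 4.29 in DIO and 4.01 and 4.10 in the controls. The other probe set of Cxcl9 differed by 0.18, with both DIO arrays above both controls. That of Cxcl11 differed by −0.07, with both below. For these 2 ligands the direction thus depended on the probe set. Of 11 inflammatory CC ligands, 7 had a higher DIO mean, 4 had both DIO arrays above both controls (Ccl4, Ccl8, Ccl9 and Ccl24) and 0 had both below, with a median of 0.08. Without control 2, 10 of these 11 had a higher DIO mean and their median was 0.15. Of the 4, all but Ccl4 were above the array median on no array, where 31.1% of all genes had both DIO arrays above both controls and 65.8% had a higher DIO mean. Of 7 homeostatic or dual-role CC ligands, 5 had a higher DIO mean and 3 (Ccl17, Ccl22 and Ccl28) had both DIO arrays above both controls, with a median of 0.21, and again 5 of 7 higher without control 2. These 3 belong to the same dim class with its 31.1%. Outside the 4 members named above, 0 members in these lists had an unadjusted p below 0.05.

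Several ligands differed more between the 2 control arrays than between the groups. Cxcl14, a chemokine that healthy epidermis makes, was at 5.45 and 4.24 in DIO and at 5.29 and 7.70 in the controls. Control 2 was 2.25 above the highest other array, and the difference of −1.65 ± 0.94 (limma, adjusted p = 0.761) was −0.45 without control 2. Its second probe set had the same order of control 2 above the rest, at 4.26 and 4.12 in DIO and 4.11 and 5.90 in the controls. Ccl6, a mouse CC ligand of myeloid cells, was at 4.21 and 4.05 in DIO and at 3.998 and 5.72 in the controls. Its difference of −0.73 ± 0.61 (limma, adjusted p = 0.811) turned to 0.13 without control 2. Without control 1 it was −1.59, and Ccl6 was the 1 member that then passed (limma, adjusted p = 0.0302), in a comparison with control 2 alone. Its other probe set, at 3.75 and 3.94 in DIO and 3.62 and 3.91 in the controls, did not set control 2 apart.

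Ccl20 and Ccl2 were named after their values were seen. Ccl20, a ligand that epithelium makes on inflammatory stimulation, was at 5.51 and 5.59 in DIO and at 5.22 and 6.57 in the controls. Its difference of −0.35 ± 0.48 (limma, adjusted p = 0.886) turned to 0.33 without control 2. Ccl2, the main attractant of monocytes, was at 5.67 and 5.9999 in DIO and at 5.50 and 6.58 in the controls. Its difference of −0.20 ± 0.41 (limma, adjusted p = 0.924) turned to 0.34 without control 2. For both genes the DIO arrays lay between the 2 controls.

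Cxcl1 depended on the probe set. The representing one, 1441855_x_at, was at 7.31 and 7.43 in DIO and at 7.31 and 7.58 in the controls, a difference of −0.07 ± 0.16 (limma, adjusted p = 0.930). The probe set 1419209_at was at 4.67 and 5.02 in DIO and at 4.67 and 7.70 in the controls, a difference of −1.34. The third, 1457644_s_at, was at 6.11 and 6.26 in DIO and at 5.93 and 7.91 in the controls, a difference of −0.73. In the suffixes, x marks a set with probes that match other sequences and s a set whose probes match several transcripts. On all 3 the highest array was control 2, by 0.15 on the first. Ppbp, which lies in the same kind of neutrophil-attracting CXC group and is no member by symbol, was at 5.90 and 5.59 in DIO and at 4.55 and 8.28 in the controls.

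**Figure D4:**
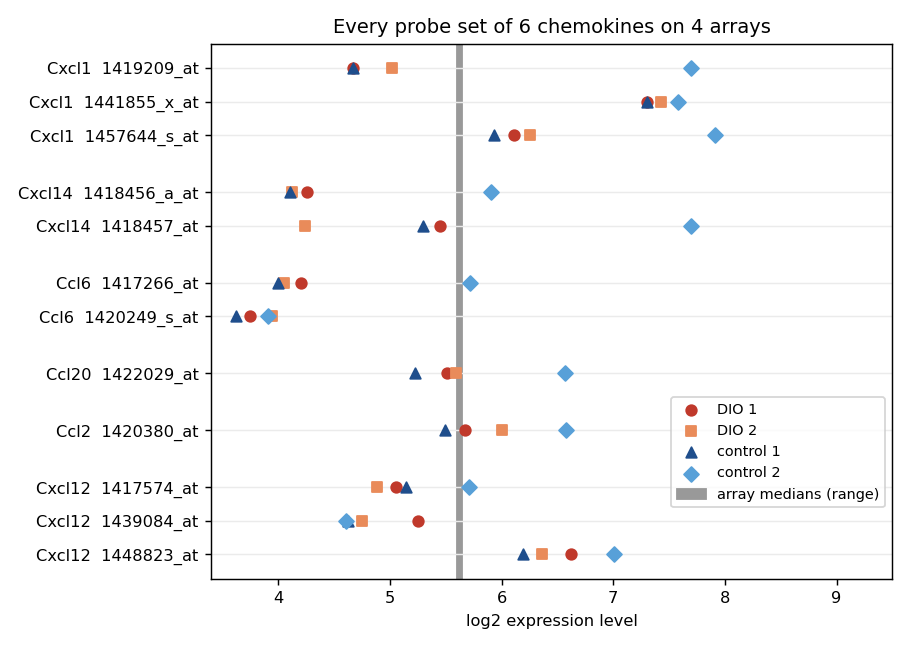
Log2 expression level (x axis) of the 12 probe sets of Cxcl1, Cxcl14, Ccl6, Ccl20, Ccl2 and Cxcl12 (rows), with 1 point per array and the range of the array medians as a grey band. Control 2 is the highest point for 10 of the 12, and it is not for 1420249_s_at of Ccl6 and 1439084_at of Cxcl12.

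Control 2 was the highest array for 12 of the 48 members (25%), where it was for 20.9% of all genes. On the representing probe sets, it was higher than the next array by 1 log2 unit or more for 2 members, Cxcl14 and Ccl6. That was a share of 4.17%, where 3.49% of all genes had such a margin. Both shares were near those of all genes. Control 2 was the lowest array for 16 of the 48 members (33.3%), where it was for 40.9% of all genes. The epidermal markers were also highest on control 2, 18 of 18, as were 7 of 10 fibroblast markers. The pluripotent cell markers had their lowest average there. On the other arrays the order differed, as Cxcl14 was lowest on DIO 2 and the epidermal average on control 1. The part of these markers in the result was not tested. Of the 9 members with a RefSeq promoter that were highest on control 2, 5 held the NF-κB-like letters (Ccl20, Cxcl1, Cxcl2, Cxcl3 and Cxcl10), and of the other 26 with a promoter 4 did. Cxcl1, Cxcl2 and Cxcl3 lie in the same run of neighbouring members and share GGGAATTTCCC, so they are not separate cases. For Cxcl3 and Cxcl10 the margin of control 2 was only 0.043 and 0.066. The contrast between the 9 and the other 26 was not tested. On the representing probe sets, Cxcl14 had the widest margin and Ccl6 the next, and both held none. Cxcl1, which held the letters, is represented by 1441855_x_at. Its probe set 1419209_at read 7.70 on control 2 and at most 5.02 on the other arrays.

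Of the other genes of the chemokine system, 0 passed the adjusted threshold (limma), and 3 had an unadjusted p below 0.05 (Ackr3, Ccrl2 and Rgs2), a level that 6.58% of all genes reached. These 3 came from the 4 lists that follow, so their share was not above that of all genes. Of 10 related genes outside the rule, 8 had a lower DIO mean (7 after quantile normalization, 6 after centring and 5 without control 2). Both DIO arrays were lower than either control for 4 of the 10, a larger share than the 17% of all genes, and higher for 2. Without control 2, 4 were below control 1 and 4 above it, where 42.3% and 33.5% of all genes were. The larger share below was thus not kept. Ccrl2, a non-signalling receptor that presents chemerin, was at 6.62 and 6.36 in DIO and at 7.07 and 7.07 in the controls, a difference of −0.57 ± 0.15 (unadjusted p = 0.0169, adjusted p = 0.728 in limma). Cmtm3 differed by −0.0026 ± 0.20 and Cmtm6 by −0.34 ± 0.23, which was −0.059 without DIO 2 and −0.62 without DIO 1. Of 23 measured genes of receptor signalling, the DIO mean was lower for 15 (12 after either rescaling), and 9 of these were without overlap (7 after either rescaling, 13 without control 2). Both DIO arrays lay below both controls for 17% of all genes and for 21.6% of those above the array median on all arrays, the class of 18 of the 23. Without control 2 these shares were 42.3% and 52.2%. A higher DIO mean was seen for 47.4% of all genes above the array median on all arrays. Without control 2 that share was 34.8%, and 16 of the 23 had a lower DIO mean. Rgs2, which limits G protein signalling, was at 5.79 and 6.05 in DIO and at 6.47 and 6.87 in the controls, a difference of −0.75 ± 0.20 (limma, unadjusted p = 0.0199, adjusted p = 0.728). Gnai1, an inhibitory G protein subunit, differed by −0.60 ± 0.25 (−0.31 without control 2), the small GTPase Rac1 by −0.18 ± 0.13 and Gnb2 by 0.07 ± 0.13.

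Of 12 measured NF-κB factors and inhibitors, the DIO mean was lower for 11 (7 after quantile normalization and 8 after centring or without control 2). For 4 of these the groups did not overlap, and without control 2 both DIO arrays were below for 7. Of all genes above the array median on all arrays, as 10 of these 12 were, 21.6% had both DIO arrays below, and 52.2% without control 2. In that class 47.4% had a higher DIO mean, and 34.8% without control 2. The median difference over the list was −0.11. Their average was 7.91 and 7.93 in DIO and 7.96 and 8.20 in the controls, and 7 of the 12 were highest on control 2. Bcl3, a co-activator, was at 6.44 and 6.54 in DIO and at 6.76 and 7.48 in the controls, a difference of −0.63 ± 0.28 (limma, adjusted p = 0.730) that was −0.27 without control 2 and −0.99 without control 1. Ikbkg, a subunit of the activating kinase, differed by −0.31 ± 0.14, the inhibitor Nfkbia by −0.12 ± 0.13 and the subunit Rela by −0.03 ± 0.14. Of 15 measured genes that present, shed or cleave chemokines, the DIO mean was lower for 11, and 3 of these were without overlap, a share near the 17% to 21.6% of all genes. Among genes above the array median on all arrays, the class of 14 of the 15, 47.4% had a higher DIO mean. The median difference of the 15 was −0.15, and without control 2 it was 0.09, with 6 of the 15 lower. Cpd, a carboxypeptidase, was at 7.58 and 8.26 in DIO and at 8.58 and 9.59 in the controls, a difference of −1.17 ± 0.44 (limma, unadjusted p = 0.0534, adjusted p = 0.728) that was −0.66 without control 2. The heparan sulfate enzyme Hs2st1 differed by −0.24 ± 0.14, the proteoglycan Sdc4 by −0.12 ± 0.16 and Adam10, which sheds Cx3cl1 and Cxcl16, by −0.10 ± 0.21. For Rgs2, Rac1, Ikbkg, Nfkbia, Cpd, Hs2st1 and Adam10, a single other probe set had the opposite sign and the rest kept it. The only other probe set of Cmtm6 had the opposite sign.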

How the data were processed

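RNA of 4 cultures was biotin-labelled and hybridized to Affymetrix mouse arrays, per the labels' protocols. The authors deposited 1 table of log2 expression levels for 45101 probe sets. How they corrected, normalized and summarized them is not given in the sources used here, and the log2 scale was taken from the values, which run from 2.59 to 14.5 over the probe sets used. Genes were not centred. The 64 manufacturer control probe sets were left out. The annotation gave 34945 probe sets 1 symbol, 932 several and 9160 none. Each gene took its probe set with the highest mean, without a filter on dim genes.

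DIO was compared with control with limma 3.58.1 in R 4.3.3 (lmFit and eBayes, 2-sided, Benjamini-Hochberg over 18193 genes, threshold 0.05). The number of arrays limits the precision: the median 95% interval reached 0.456 to either side. On simulated data with 18193 genes and 200 changed, 0% were recovered at a true log2 change of 1, 65.5% at 2 and 85.2% at 3. Samples were grouped by their titles. Members and lists were chosen with earlier results of these data known. Genes described one by one were members above the array median on all arrays, those with an unadjusted p below 0.05 and the 5 largest differences in each direction, and 2 by level and 2 by p of each outside list. Alternatives were quantile normalization, median centring, leaving out the dimmest 40% of genes, averaging or separating probe sets, other variance models, a replicate block and leaving out each array.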

Additional observations from a re-analysis of the deposited data

How the results depend on the processing

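The count of genes past the adjusted threshold (0) ran from 0 to 483 when 1 array was left out, with 483 without control 1, and that of members (0) from 0 to 1. It stayed at 0 for members under every other alternative. With 1 array left out, 2 arrays stand against 1, so groups more easily lie apart. Members with DIO below control (6) were then 10 to 16 and with DIO above (16) 18 to 24. Over all genes the shares rose too, from 17% to 25.4% to 42.3% below and from 21.4% to 32.8% to 50.1% above. Members below were 10 of 76 probe sets and 1 without the dimmest genes, and members above were 21 of 76 probe sets and 2 without the dimmest genes. That filter left 10916 genes and 9 members, and turned the median member difference to −0.058. Genes at an unadjusted p below 0.05 (1198) were 171 to 3689 with 1 array left out, 607 without the dimmest genes and 4184 among separate probe sets, and members at that level (4) were 0 to 13 with 1 array left out, 1 without the dimmest genes and 7 with a trended and robust eBayes.

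Of 34 genes given with a difference, 15 kept their sign under every alternative run. With separate probe sets the sign turned for Adam10 (0.046), Ccl25 (−0.12), Ccl6 (0.081), Ccr1 (0.10), Cmtm6 (1.05), Cpd (0.051), Cx3cl1 (0.11, 0.067 and 0.24), Cxcl12 (0.39), Hs2st1 (0.023), Ikbkg (0.39), Nfkbia (0.15), Rac1 (0.032) and Rgs2 (0.32). Only the probe sets that turned are listed, and for several of these genes others kept the sign. With averaged probe sets it turned for Ccl25 (−0.012), Cmtm6 (0.35) and Cx3cl1 (0.089). With quantile normalization it turned for Cmtm3 (0.055), Cx3cl1 (0.063), Cxcl1 (0.059), Cxcl12 (0.0041) and Rela (0.034), and with centring for Cmtm3 (0.025) and Rela (0.0025). With 1 array left out, differences that changed sign ran from −0.35 to 0.15 for Adam10, −0.74 to 0.34 for Ccl2, −1.02 to 0.33 for Ccl20, −0.16 to 0.34 for Ccl25, −1.59 to 0.13 for Ccl6, −0.24 to 0.23 for Cmtm3, −0.45 to 0.33 for Cx3cl1, −0.21 to 0.062 for Cxcl1, −0.51 to 0.30 for Cxcl12, −0.13 to 0.082 for Rela and −0.26 to 0.011 for Sdc4. Without a change of sign, they moved by over 1.5 times to −0.028 (without control 1), −0.29 (without control 2) and −0.10 (without DIO 1) for Cxcl16, −2.85 (without control 1) and −1.05 (without DIO 2) for Cxcl14, 0.13 (without control 1) and 0.0046 (without control 2) for Gnb2, −0.14 (without DIO 2) for Hs2st1, −0.061 (without DIO 2) and −0.19 (without DIO 1) for Nfkbia and −0.12 (without control 1) for Rac1. The cause was not tested. The replicate numbers pair no samples by label, and the deviations of same-numbered arrays correlated at 0.333 over all genes. With the replicate block 0 genes and 0 members passed, as without it, and 982 genes and 3 members had an unadjusted p below 0.05. An exact 2-sided permutation test of 2 against 2 arrays cannot give a p under 0.333.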
